A study of Mus musculus with 11 samples.

Results

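The transcripts described here are the well measured long noncoding RNAs (lncRNAs) of splenic CD8+ regulatory T cells (CD8+ Tregs), 423 genes of the 54532 genes in the deposited count table. They were the rows annotated as lincRNA (172 genes), antisense (148) or processed_transcript (103), not on chromosome X or Y, with at least 10 raw counts in each of 9 libraries. The table held 8438 lncRNA rows off the sex chromosomes, so the 423 were chosen for being measured, and their abundance is a description. The requirement used libraries of both ages, and an lncRNA absent at 1 age could not enter. The rows nearest the minimum were alike in level: Gm12000 (mean 1.33 CPM, counts scaled to library size), Gm11767 (1.60) and 1700123M08Rik (1.42) had a lowest count of 10, and Gm11713 (0.693), 4930481B07Rik (1.67) and Gm15545 (2.34) had a lowest count of 9 and stayed outside.

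The cells were sorted by flow cytometry as CD8+CD44+Ly49+CD122+ from spleens of wild-type (WT) mice, the paper's C57BL/6J strain, after lysis of red cells and bead selection of CD8+ cells. There were 11 libraries, of which 3 young and 2 middle-aged were from males and 3 of each age from females. Young mice were 2 to 3 months old and the older mice 10 to 12 months old by the labels, which call the latter old, whereas the study calls them middle-aged. No mouse carried a deletion, a transgene or a treatment, and the question asked was how the RNA of these cells differs between the ages. Ly49 receptors and CD122, the beta chain of the IL-2 and IL-15 receptors, mark a small set of CD8+ T cells that restrains other T cells.

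LncRNAs are long transcripts with no known protein product. Some stay in the nucleus, such as Malat1 and Neat1, the latter the scaffold of nuclear bodies called paraspeckles. Others are spliced precursors whose introns release small nucleolar RNAs (snoRNAs, guides for the chemical modification of ribosomal RNA) or are cut into microRNAs, and many lie opposite or next to a protein-coding gene. In T cells, Ifngas1, transcribed near the interferon gamma gene, and Mir142hg, the precursor of a microRNA of blood cells, are well known examples.

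Each library held 6135736 to 24394532 counts, and the 423 lncRNAs took 0.676% to 0.959% of them. Young male 1 and young female 1 were the shallow libraries outside the 9, and 298 and 343 of the lncRNAs had 10 or more counts there, against 423 of 423 in each other library. All CPM values were scaled by the trimmed mean of M-values. A count of 0 allows up to 3 counts, which is 0.119 to 0.543 CPM by library, for counting error only. The 7 genes listed as markers of these cells (Cd8a, Cd8b1, Cd3e, Cd44, Il2rb, Ikzf2 and Klra7) summed to 4676 to 7208 CPM in every library. The sort itself used CD8, CD44, Ly49 and CD122, and neither Cd3e nor Ikzf2. Klra7 is a gene of the Ly49 family, and the sort is not stated to have stained its product. The paper proposes that the common Ly49 antibody recognised Ly49F on these cells. Among the 7, Il2rb, the gene of CD122, had 552 to 2625 CPM in young (median 2222) and 1956 to 2579 CPM in middle-aged libraries. Ikzf2 was low, at 23.3 to 69.2 and 10.8 to 38.3 CPM. In 1 library, middle-aged female 2, the 9 myeloid cell markers summed to 2628 CPM, against 146 to 325 in the other middle-aged and 40.9 to 235 in the young libraries, and plasma cell markers to 367 CPM against 88.1 to 164 in all others. Values without this library are given beside the differences by age that it changes. In sorted bulk cells, fewer cells of a type and less RNA per cell cannot be told apart.

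Among the 423 genes, 304 had a RefSeq gene symbol (GRCm38.p6). RefSeq lists 284 as lncRNA, 17 as protein-coding (among them Cct6a and Tmem134) and 3 as pseudogenes. In the GENCODE M21 annotation 413 had the same span. Their transcribed length ranged from 141 to 93092 bases (median 1896). Opposite to 207 of them lay a protein-coding gene, and 149 had the start of one on the other strand within 1 kb of their own start, on either side. Of the set, 21 held snoRNA genes and 13 held microRNA genes. A stretch of at least 100 bases with at least 95% identity matched a single other gene over more than 50% of the longest transcript for 10 of 421 lncRNAs compared, whose counts are therefore uncertain.

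The sequences that some of these transcripts are processed into are shown first, since the host genes come back below. Mir17hg (chr14:115042879-115046727, plus strand), Dleu2 (chr14:61602839-61682373, minus strand) and Mir142hg (chr11:87755577-87757270, plus strand) carry the following mature microRNAs of RefSeq, written 5′ to 3′ with the seed, bases 2 to 8, in capitals.
miR-17-5p: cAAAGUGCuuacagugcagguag
miR-20a-5p: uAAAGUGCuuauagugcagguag
miR-18a-5p: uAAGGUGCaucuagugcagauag
miR-19a-3p: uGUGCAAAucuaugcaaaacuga
miR-19b-3p: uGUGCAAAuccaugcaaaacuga
miR-92a-3p: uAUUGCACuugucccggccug
miR-15a-5p: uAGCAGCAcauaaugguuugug
miR-16-5p: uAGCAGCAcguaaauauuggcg
miR-142a-5p: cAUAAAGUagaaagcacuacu
miR-142a-3p: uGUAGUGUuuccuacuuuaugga
Of these, miR-17-5p and miR-20a-5p shared a seed, as did miR-19a-3p and miR-19b-3p from the same host and miR-15a-5p and miR-16-5p from Dleu2. The libraries measured the host transcripts and not the mature microRNAs.

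Several snoRNA hosts are known to start with a run of pyrimidines, the terminal oligopyrimidine motif of ribosomal protein messengers. The windows below, from 15 bases before to 25 bases from an annotated start, show such a run in capitals for 5 of the hosts.
Gas5 (chr1:161035151-161035190, plus strand): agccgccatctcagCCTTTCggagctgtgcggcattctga
Snhg8 (chr3:123508312-123508351, minus strand): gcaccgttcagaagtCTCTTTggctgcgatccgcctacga
Snhg12 (chr4:132308663-132308702, plus strand): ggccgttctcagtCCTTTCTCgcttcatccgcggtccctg
1110038B12Rik (chr17:34952444-34952483, minus strand): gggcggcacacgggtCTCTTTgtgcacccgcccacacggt
2410006H16Rik (chr11:62602862-62602901, plus strand): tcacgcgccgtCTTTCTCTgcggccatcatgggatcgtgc
A run of at least 5 bases that were each C or T, opening with C within 5 bases of an annotated start, on the gene's strand, stood in 8 of the 18 snoRNA hosts searched in RefSeq (44.4%). It stood in 51 of 228 other lncRNAs of the set (22.4%) and in 5718 of all 27025 genes with a promoter in the table (21.2%). AI506816 and 2700038G22Rik, both among the 8, had nearly the same letters at their starts. Gas5 also has an annotated start without such a run. The 18 were hosts by annotation and differ from the listed names used below. A match is a description of the letters and not of a site in use.

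AW112010, an interferon-induced transcript for which a small protein has been reported in macrophages, was the most abundant lncRNA, at a mean of 1326 CPM ± 572 (SD, n = 11). Its level in young libraries ran from 709 to 2168 CPM with a median of 980. In middle-aged libraries it was 1983 and 1087 in males and 2226, 1300 and 863 in females, and only middle-aged female 1 lay above the young range. Per kilobase of transcript it also led the set, at 1723 CPM per kb, ahead of Gm10076 (391) and Gm26917 (364).

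Gm26917 came next in CPM, which does not account for length, at 1211 CPM ± 1090 (SD, n = 11), and was the most uneven of the 10 most abundant lncRNAs. It ran from 40.9 to 2154 CPM in young libraries with a median of 1022, and was 493.3 and 3613 in middle-aged males and 128, 544 and 2027 in middle-aged females. Its span (chr17:39843013-39846341, GRCm38) ends 617 bases before that of Gm42418, a lincRNA row with 0 counts in all 11 libraries. The sources used here do not state whether ribosomal RNA reads were removed, and whether the Gm26917 row holds any was not tested. Without Gm26917 the share of counts on the set was 0.594% to 0.919%.

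The remaining genes of the 10 most abundant had mean levels from 140 to 313 CPM. Cct6a (313 CPM) and Tmem134 (255 CPM) are genes that RefSeq lists as protein-coding, the former for a chaperonin subunit. Malat1, a nuclear RNA, had 174 to 434 CPM in young libraries (median 308). In middle-aged males it had 394 and 123.1 CPM and in middle-aged females 198, 267 and 207, so the groups overlapped. Gm19585, which lies 153125 bases from Satb1, the gene of a chromatin organiser of T cells, had a mean of 216 CPM. Gas5, a snoRNA host that also binds the glucocorticoid receptor, had 209 CPM, and AI506816 had 161 CPM. Gm10076, at 150 CPM, matched Rpl41, the gene of a ribosomal protein, over 99.7% of its transcript, so its reads cannot be told apart from those of that gene. Gm2682 had 140 CPM. These 10 genes took 41.0% to 65.8% of the counts on the set.

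Below them the set was faint: 15 lncRNAs had a mean over 100 CPM, 104 over 10 CPM and 86 under 2 CPM, and the median was 4.29 CPM. The median of all 13129 genes tested was 22.3 CPM.

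**Figure D1:**
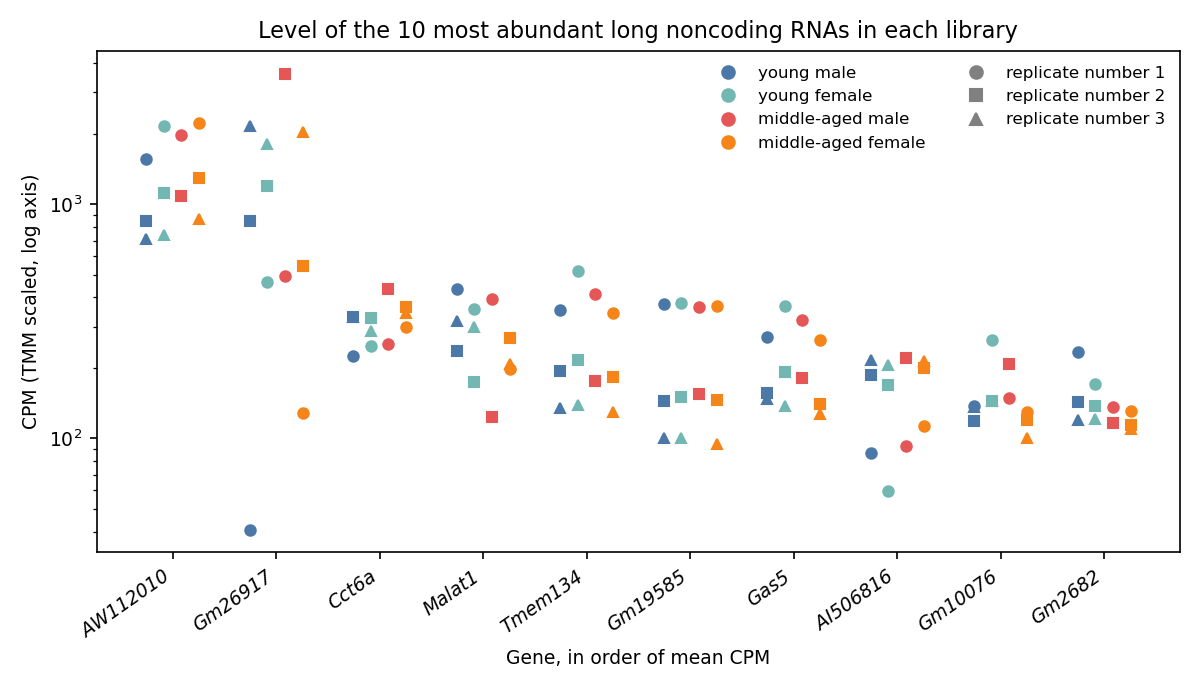
CPM (log axis) of the 10 most abundant lncRNAs in each of the 11 libraries, coloured by age and sex and shaped by the replicate number in the labels. AW112010 leads at a mean of 1326 CPM, and Gm26917 spreads from 40.9 to 3613 CPM.

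The libraries with replicate number 1 stood apart in many lncRNAs, in both ages and sexes. The numbers come from the labels, which do not say that a number marks a shared day or batch, and this comparison was made after the values had been seen. Gm19585 was at 376 and 379 CPM in young male 1 and young female 1 and at 365 and 367 in the middle-aged libraries numbered 1. In the 7 libraries numbered 2 or 3 it ran from 95.2 to 155 CPM, so the libraries numbered 1 did not overlap with the others. AW112010 was at 1552 to 2226 CPM in the libraries numbered 1 and at 709 to 1300 CPM in the rest. Ifngas1, next to Ifng, had means of 203, 96.7 and 75.4 CPM in libraries numbered 1, 2 and 3. Gas5 had means of 305, 167 and 138 CPM.

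Other lncRNAs were low where those were high. Gm26917 had means of 282, 1550 and 1998 CPM in libraries numbered 1, 2 and 3. AI506816 had 88.2, 195 and 212 CPM, and Neat1 had 26.9, 31.5 and 94.0 CPM. In a test of replicate number with sex and age (edgeR's quasi-likelihood test, Benjamini-Hochberg adjusted p under 0.05), 56 of the 423 lncRNAs were called (13.2%), against 26.3% of all genes tested. Of the 56, 49 had their highest mean in libraries numbered 1 and 7 their lowest, the latter being AI506816, Neat1, Gm42047, D330041H03Rik, Cct6a, Brip1os and Gm44175. The smallest adjusted p belonged to Gm19585 (8.14e-05), Tmem134 (0.000159) and AW112010 (0.000175).

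Whether called or not, 264 of the 423 lncRNAs (62.4%) had their highest mean in libraries numbered 1, against 40.8% of all genes tested. Among lncRNAs under 1000 bases it was 76.8% of 99, and among those over 5000 bases 45.8% of 48. The log2 ratio of number 3 to number 1 had a Spearman correlation of 0.30 with transcript length over the 423 lncRNAs, a description in which all points share the same libraries. The libraries numbered 3 had more genes with a count (18292 to 19372) than those numbered 1 (13025 to 16984) or 2 (15278 to 17741). The ranges of numbers 1 and 2 overlapped, and the lowest values, 13025 and 13842, were those of the shallow young male 1 and young female 1. The part of these gene counts in the values was not tested.

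**Figure D2:**
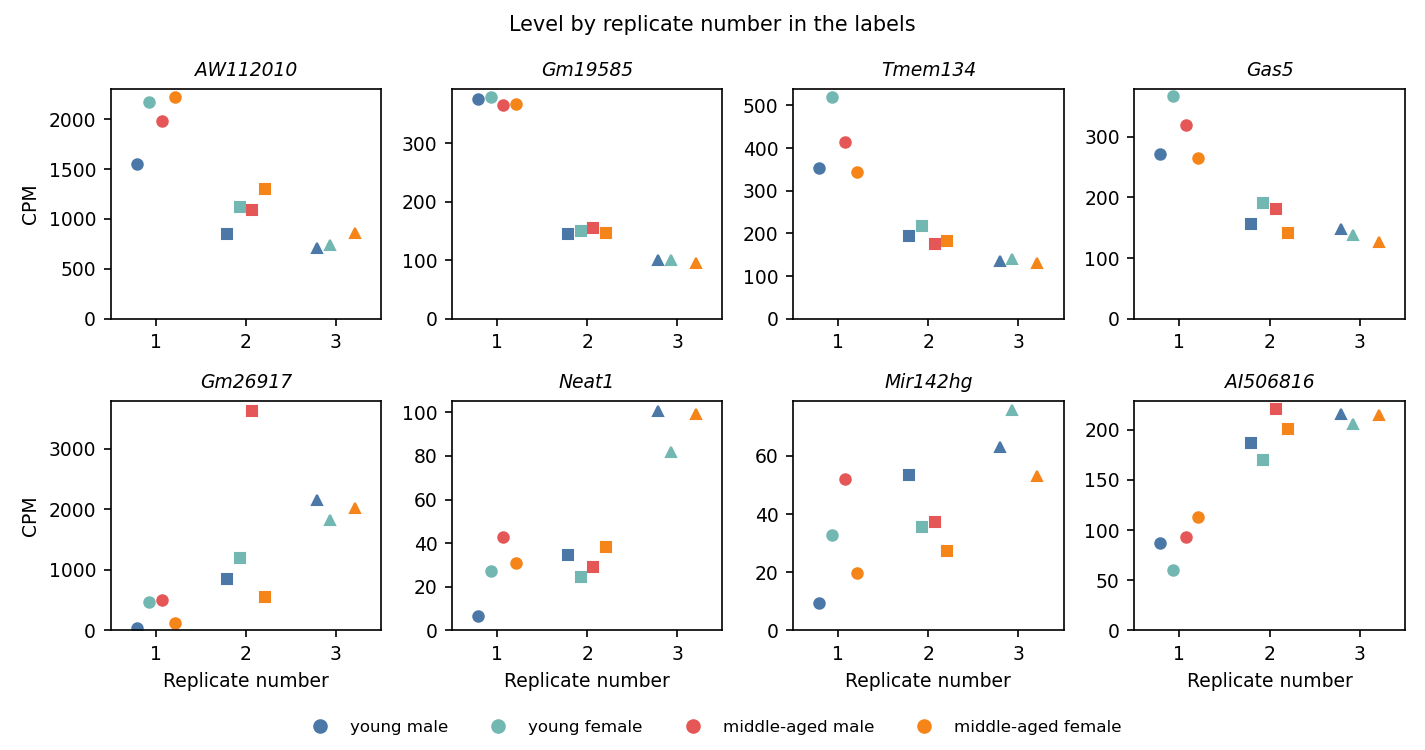
CPM of 8 lncRNAs against the replicate number given in the labels, 1 point per library, coloured by age and sex. AW112010, Gm19585, Tmem134 and Gas5 are highest in the 4 libraries numbered 1, and Gm26917, Neat1, Mir142hg and AI506816 have their lowest means there.

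Between young and middle-aged CD8+ Tregs, no lncRNA of the set passed the test. With edgeR's quasi-likelihood test in a model with sex and age, 0 of 423 had an adjusted p under 0.05 over all 13129 genes, of which 3 did (0.0229%), and the smallest adjusted p in the set was 0.389. At an unadjusted p under 0.05 there were 15 lncRNAs (3.55%, against 2.99% of all genes). Of these, 4 were higher in middle-aged mice (0.946%, against 2% of all genes) and 11 were lower (2.6%, against 0.99%). DESeq2 called 4 lncRNAs (background 0.853%), namely A930002I21Rik, B630019A10Rik, Gm43352 and Gm19589. Limma voom with quality weights also called 4 (background 1.05%), the first 3 of these and AU020206. At an unadjusted p under 0.05 DESeq2 had 24 lncRNAs (background 4.43%) and limma voom 51 (background 8.96%).

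The log2 fold changes (middle-aged over young) ran from -3.44 to 1.94, with 33 of 423 past an absolute value of 1. They were positive for 165 lncRNAs (39%, against 50.4% of all genes), and their median was -0.13, against 0.0028 over all genes. This lean was not seen in the 9 deeper libraries. With them alone, 210 of 423 were positive (49.6%, against 49.6% of all genes), the median was -0.0063, and 32 lncRNAs (18 higher, 14 lower) had an unadjusted p under 0.05, against 5.84% of all genes. With single libraries left out the median ran from -0.282 without middle-aged male 1 to -0.0222 without young female 1. It was -0.107 without young male 1 and -0.0692 without middle-aged female 2. Without middle-aged female 2, the library with the myeloid markers, 5 of the 15 lncRNAs at an unadjusted p under 0.05 were no longer under it, namely Gm12454, Gm12596, Gm32633, 1810034E14Rik and AC154766.4, with unadjusted p of 0.0548 to 0.0776 by edgeR in a fit with 1 library fewer. All 15 lncRNAs had the same direction in the 9 libraries, and 9 of them were again under 0.05. These libraries are part of those by which the 15 were chosen, so the shared direction is a description and not a second test.

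**Figure D3:**
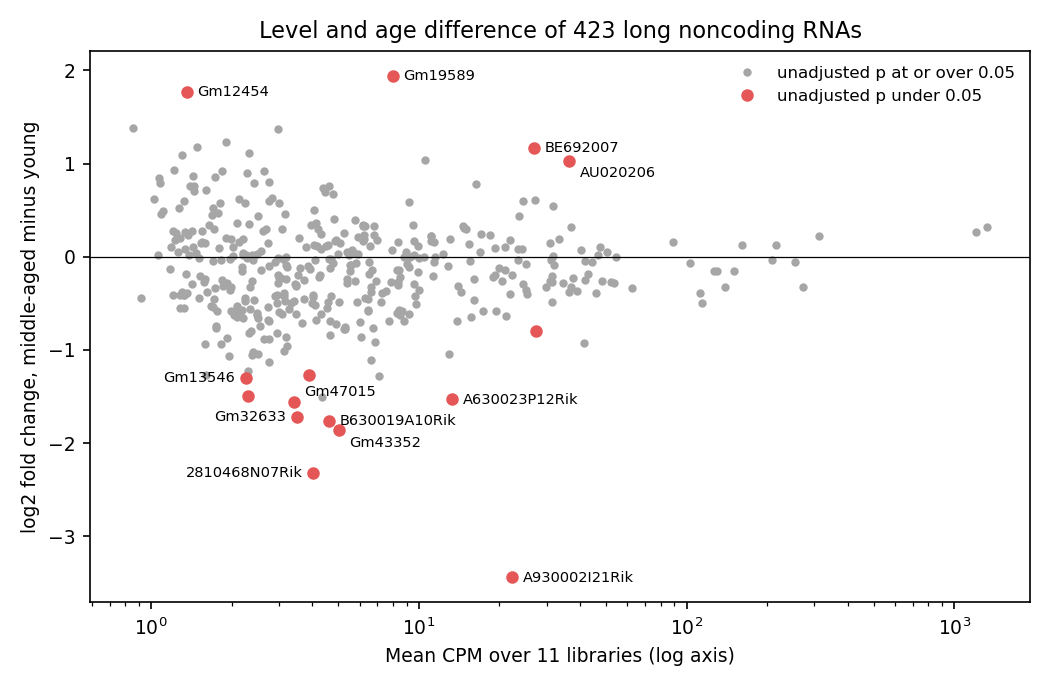
Log2 fold change with age (middle-aged minus young) against the mean CPM over 11 libraries (log axis) for the 423 lncRNAs. The 15 red points have an unadjusted p under 0.05, none has an adjusted p under 0.05, and A930002I21Rik lies lowest at -3.44.

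The largest difference was that of A930002I21Rik (ENSMUSG00000050179), a lincRNA at chr3:107090880-107098401 that lies 2745 bases from Kcna2, the gene of a potassium channel. It had 13.99 to 126 CPM in young libraries (median 20.9), 2.38 and 1.83 CPM in middle-aged males and 2.81, 7.73 and 0.569 CPM in middle-aged females. Every middle-aged library was below every young library. The log2 fold change was -3.44 ± 0.843 (SE), with an unadjusted p of 0.00158 and an adjusted p of 0.389 by edgeR, 0.000407 by DESeq2 and 0.00841 by limma voom. An exact permutation test gave p = 0.00216, 2-sided, the smallest that the splits of 11 libraries into 6 and 5 allow. Permutation p here and below were not adjusted over genes, and the lncRNAs were chosen by their edgeR p in the same libraries. Without middle-aged female 2, the highest middle-aged library, the log2 fold change was -4.18. The young male 1 value of 125.9 CPM stood far from the rest, and with the 9 libraries the log2 fold change was -2.63 ± 0.623 (SE, adjusted p = 0.272 by edgeR).

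Gm43352 (ENSMUSG00000106086), an antisense RNA of 1 exon at chr3:131109026-131112090 on the minus strand, overlaps exons of Lef1, the gene of a transcription factor of naive and memory T cells. It had 4.27 to 11.4 CPM in young libraries (median 7.24), 3.23 and 1.53 CPM in middle-aged males and 2.12, 1.30 and 2.09 CPM in middle-aged females. The ages did not overlap here either. Its log2 fold change was -1.86 ± 0.456 (SE), with an adjusted p of 0.389 by edgeR, 0.000901 by DESeq2 and 0.0264 by limma voom, and an exact permutation p of 0.00216. Lef1 itself had 345 to 542 CPM in young libraries and 323, 340, 350, 236 and 346 CPM in middle-aged ones (log2 fold change -0.47 ± 0.204, unadjusted p = 0.0381, adjusted p = 1.00). The sources used here do not state whether counting used strand, so reads of the 2 genes cannot be told apart.

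B630019A10Rik (ENSMUSG00000068463), an antisense-annotated RNA at chr16:23175280-23224446, lies 294 bases from St6gal1, the gene of a sialyltransferase. It had 3.07 to 13.8 CPM in young libraries (median 6.17), 2.23 and 1.95 CPM in middle-aged males and 2.28, 1.504 and 1.94 CPM in middle-aged females, without overlap. The log2 fold change was -1.76 ± 0.465 (SE), with an adjusted p of 0.457 by edgeR, 0.00212 by DESeq2 and 0.0115 by limma voom, and an exact permutation p of 0.00433. St6gal1 had a mean of 146 CPM in the young and 91.0 CPM in the older group (log2 fold change -0.68 ± 0.384, adjusted p = 1.00).

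Further RNAs at an unadjusted p under 0.05 were lower in middle-aged mice. A630023P12Rik (chr5:110514923-110525980) had 7.56 to 37.4 CPM in young libraries (median 15.6), 10.5 and 3.84 CPM in middle-aged males and 6.57, 6.02 and 5.74 CPM in middle-aged females. Only the middle-aged male 1 library lay within the young range. 2810468N07Rik (chr17:25570811-25575043), called Cerox1 by RefSeq and known for raising subunits of mitochondrial complex I, had 1.78 to 21.3 CPM in young libraries (median 2.82), 0.903 and 2.12 CPM in middle-aged males and 0.794, 0.501 and 1.61 CPM in middle-aged females. Its log2 fold change of -2.32 ± 0.804 (SE) was -1.41 without young female 1, the 21.3 CPM library, and -1.04 with the 9 deeper libraries. Gm47015 (chr10:79412962-79417905) had 2.50 to 8.68 CPM in young libraries (median 4.31), 0.903 and 1.89 CPM in middle-aged males and 0.953, 0.877 and 3.46 CPM in middle-aged females. All these groups overlapped in 1 or more libraries.

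Gm13546 (chr2:58164001-58177063) lies opposite Cytip, whose product regulates the adhesion of lymphocytes. It had 2.15 to 4.73 CPM in young libraries (median 2.74), 1.09 and 1.12 CPM in middle-aged males and 0.847, 2.21 and 0.996 CPM in middle-aged females. The 2.21 CPM belonged to middle-aged female 2, the library with the myeloid markers, and leaving it out moved the log2 fold change from -1.30 ± 0.492 (SE) to -1.53. Cytip had a log2 fold change of -0.13 ± 0.21 (SE). Gm32633 (chr7:64001885-64020959), whose nearest protein-coding gene is Klf13, had 2.053 to 11.03 CPM in young libraries (median 2.95), 2.09 and 1.00 CPM in middle-aged males and 2.70, 0.543 and 1.33 CPM in middle-aged females, with overlap. The log2 fold changes of A630023P12Rik, Gm47015 and Gm32633 were -1.53 ± 0.505, -1.56 ± 0.584 and -1.72 ± 0.684 (SE). The 3 lncRNAs of this direction with larger p were Gm12596, 1810034E14Rik and AC154766.4, at -1.27, -0.80 and -1.499, with unadjusted p of 0.0316, 0.0311 and 0.0439 by edgeR.

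Of the 4 lncRNAs higher in middle-aged mice, Gm19589 (ENSMUSG00000100798, a lincRNA at chr1:88551517-88562167) had 1.63 to 7.70 CPM in young libraries (median 2.66), 20.1 and 8.03 CPM in middle-aged males and 17.4, 5.10 and 14.8 CPM in middle-aged females. The middle-aged female 2 library lay within the young range and the other 4 above it. The log2 fold change was 1.94 ± 0.528 (SE), with an adjusted p of 0.493 by edgeR, 0.0203 by DESeq2 and 0.450 by limma voom, and an exact permutation p of 0.0173. AU020206 (ENSMUSG00000097415, a lincRNA at chr7:75769038-75782099) had 15.04 to 47.2 CPM in young libraries (median 23.2), 67.1 and 46.3 CPM in middle-aged males and 58.7, 41.4 and 34.2 CPM in middle-aged females. Young male 1 alone reached into the middle-aged range. The log2 fold change was 1.03 ± 0.291 (SE), with an adjusted p of 0.542 by edgeR, 0.0793 by DESeq2 and 0.0163 by limma voom, and with the 9 libraries it was 1.28 ± 0.239 (adjusted p = 0.147).

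BE692007 (chr19:11470166-11484578) overlaps exons of Ms4a6c, a membrane protein gene of myeloid cells, on the other strand. It had 6.29 to 31.1 CPM in young libraries (median 16.7), 69.6 and 24.7 CPM in middle-aged males and 43.3, 24.6 and 31.3 CPM in middle-aged females. The libraries at 24.7 and 24.6 CPM lay within the young range and the other 3 above it. The log2 fold change was 1.17 ± 0.407 (SE, adjusted p = 1.00 by edgeR). Ms4a6c had 1.81 to 5.73 CPM in young libraries and 12.6, 3.36, 7.998, 17.9 and 5.22 CPM in middle-aged ones. It was highest in middle-aged female 2, the library with the myeloid markers, where BE692007 had its lowest middle-aged value.

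Gm12454 (chr4:43504428-43508747), opposite Car9, the gene of a carbonic anhydrase, was near the limit of counting. It had 0 to 2.02 CPM in young libraries (median 0.521), 2.80 and 1.42 CPM in middle-aged males and 2.12, 2.76 and 1.94 CPM in middle-aged females. The 0 was in young male 1, where it allows up to 0.543 CPM, and the young female 3 library reached into the middle-aged range. The log2 fold change was 1.77 ± 0.773 (SE, unadjusted p = 0.0414 by edgeR). In each of the 12 lncRNAs described, the direction was the same in males and females and within each replicate number. These 12 were chosen by their p, so that the shared direction is a description.

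**Figure D4:**
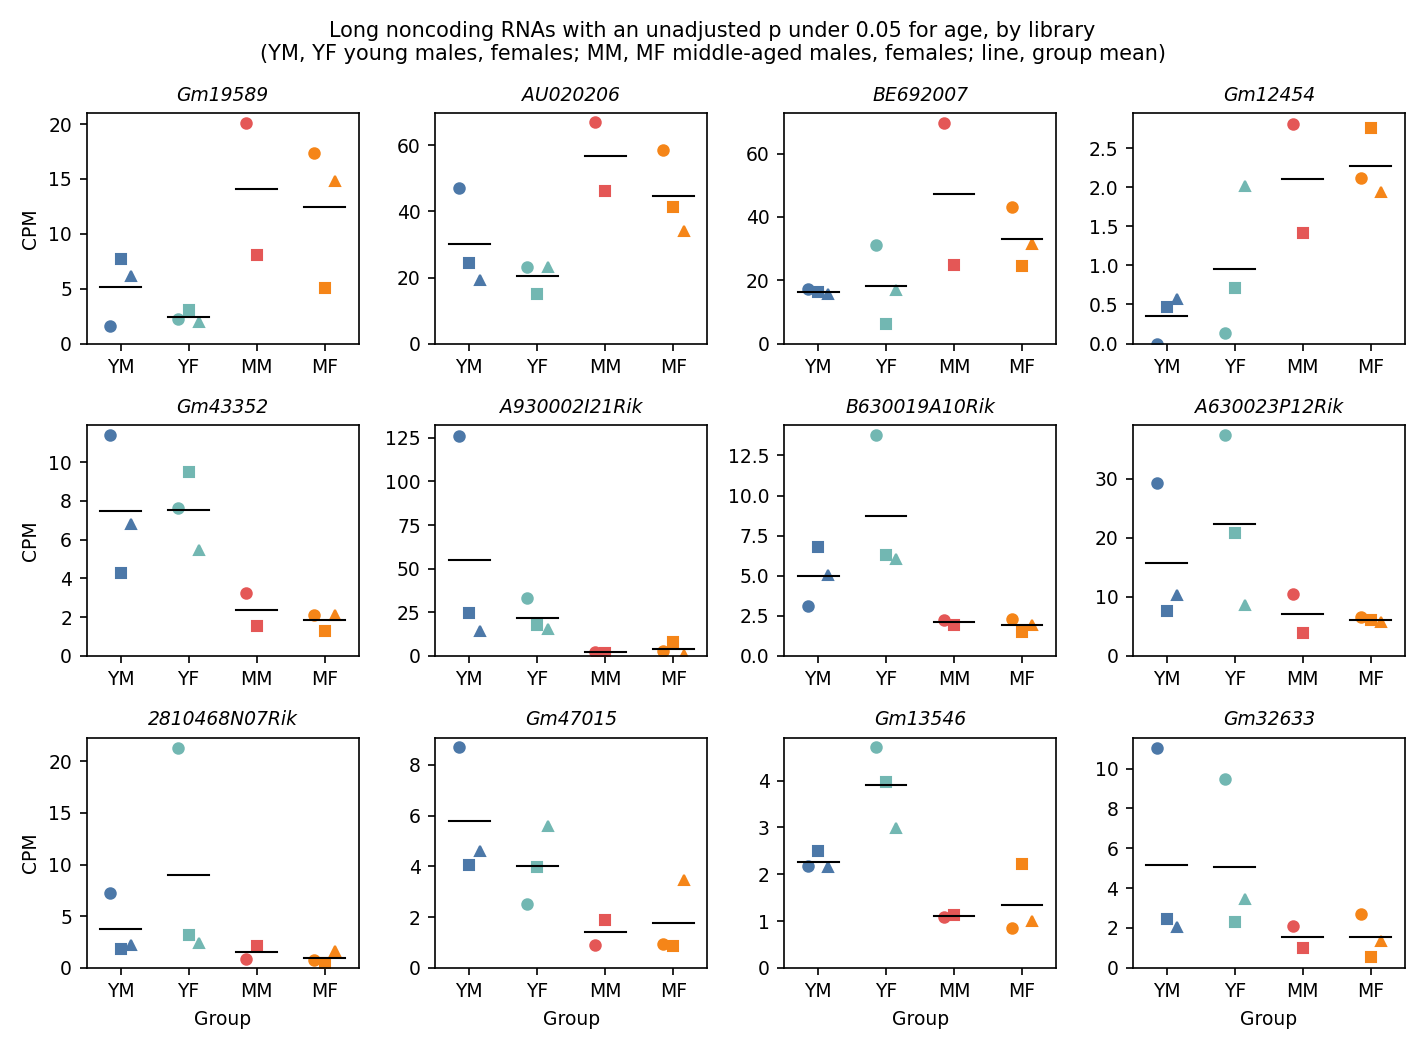
CPM of 12 lncRNAs at an unadjusted p under 0.05 for age, up to 8 in each direction by smallest p, 1 point per library (circle, square and triangle for replicate numbers 1, 2 and 3) and a line at the mean of each group of 2 or 3 libraries. The first row holds the 4 that were higher in middle-aged mice, and the other 2 rows the 8 that were lower.

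Counted by overlap alone, the ages did not overlap in 5 lncRNAs (1.18%, against 1.31% of all genes tested). Of these, 4 were lower in middle-aged mice (0.946%, against 0.297%), namely A930002I21Rik, Gm43352, B630019A10Rik and Gm12596. The fifth, A430046D13Rik, was higher (0.236%, against 1.01%), with 0.139 to 10.7 CPM in young libraries (median 8.37), 20.8 and 12.0 CPM in middle-aged males and 15.5, 11.03 and 12.6 CPM in middle-aged females. Its log2 fold change was 1.04 ± 0.631 (SE, adjusted p = 1.00 by edgeR), and Gm12596 and A430046D13Rik were named for this after their values had been seen.

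The snoRNA hosts did not pass the test with age. Of the 24 names listed, 15 were in the set, with 4 log2 fold changes above 0 and 11 below, a median of -0.09 beside 0.0028 over all genes, and none at an unadjusted p under 0.05. They ranged from -0.48 ± 0.33 (SE) for Zfas1, a host of C/D box snoRNAs, to 0.33 ± 0.361 for Snhg4. The sign of this count depended on the libraries, since with the 9 deeper ones 12 were positive and 3 negative and the median was 0.29. Summed over the 15 hosts, the level ran from 372 to 909 CPM in young libraries (median 427), and was 774 and 446 CPM in middle-aged males and 560, 348 and 353 CPM in middle-aged females. The high sums were those of the libraries numbered 1, and 14 of the 15 listed hosts had their highest mean there. Of the 21 lncRNAs that hold snoRNA genes by annotation, listed or not, 15 did (71.4%), against 62.4% of the whole set.

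Gas5 had 138 to 366 CPM in young libraries (median 174), 320 and 181 CPM in middle-aged males and 264, 141 and 127 CPM in middle-aged females, and its log2 fold change of -0.04 ± 0.34 became 0.37 with the 9 libraries. Snhg1 had 11.4 to 66.3 CPM in young libraries (median 16.7), 35.9 and 15.3 CPM in middle-aged males and 27.2, 16.4 and 13.3 CPM in middle-aged females. Both had their highest values in the libraries numbered 1. Per kilobase of transcript, 2410006H16Rik led the hosts at a level of 74.7 CPM per kb, ahead of Gas5 (55.7) and Snhg15 (40.0), and Dancr was lowest (1.36). The hosts Gas5, Snhg1, Snhg6, Snhg15 and Snhg20 were among the 56 lncRNAs called for replicate number.

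Of 13 names listed as microRNA hosts, 4 were in the set, 2 with a log2 fold change above 0, 2 below. Lncpint was on the list, but no mature microRNA of RefSeq lay within its span. Apart from the list, 13 lncRNAs of the set held microRNA genes by annotation. Of these, 4 had a log2 fold change above 0 and 9 below, with a median of -0.25. None of either group had an unadjusted p under 0.05 by edgeR. Mir142hg had 9.40 to 75.7 CPM in young libraries (median 44.6), 52.0 and 37.4 CPM in middle-aged males and 19.6, 27.4 and 53.02 CPM in middle-aged females (log2 fold change -0.25 ± 0.46, SE). Dleu2, deleted in human chronic lymphocytic leukaemia, ranged from 8.83 to 19.5 CPM in the young and from 9.15 to 15.9 CPM in the older group. Mir17hg, the precursor of the 6 microRNAs that begin with miR-17, ranged from 0 to 2.82 CPM in the young and from 1.00 to 2.49 CPM in the older group (0.87 ± 0.892), and its 0 in young female 1 allows up to 0.417 CPM. Lncpint, a p53-induced transcript, ranged from 0.543 to 6.62 CPM and from 3.26 to 9.44 CPM.

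Of the nuclear retained RNAs, Malat1, Neat1 and Kcnq1ot1 were in the set of 8 names listed, and none had an unadjusted p under 0.05. Malat1 had a log2 fold change of -0.32 ± 0.315 (SE), which was -0.10 ± 0.319 with the 9 libraries. Kcnq1ot1, which silences neighbouring imprinted genes, had -0.38 ± 0.331, and Neat1 0.01 ± 0.61. Neat1 had 6.51 to 101 CPM in young libraries (median 30.9), 43.0 and 28.9 CPM in middle-aged males and 30.9, 38.3 and 99.4 CPM in middle-aged females. Its 3 libraries numbered 3, at 81.8 to 101 CPM, were above all others.

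Of 30 names of lncRNAs of lymphocytes and of p53 or stress responses, 15 were in the set, 7 with a log2 fold change above 0 and 8 below (median -0.03), and none at an unadjusted p under 0.05. Ifngas1 had 70.3 to 261 CPM in young libraries (median 111), 196 and 86.7 CPM in middle-aged males and 169, 78.1 and 80.4 CPM in middle-aged females, which overlapped (-0.15 ± 0.406, SE). A430093F15Rik, which lies 1973 bases from Cd5, a dampener of T cell receptor signals, had 19.9 to 99.5 CPM in young libraries (median 40.1), 38.4 and 16.2 CPM in middle-aged males and 44.6, 22.0 and 17.7 CPM in middle-aged females (-0.92 ± 0.478, unadjusted p = 0.0776). Its highest value within each group was in the library numbered 1. Gm14005, known as Morrbid and placed near the gene of the death factor Bim, ranged from 1.48 to 10.3 CPM in the young and from 1.48 to 8.94 CPM in the older group (0.67 ± 0.68). Tug1, a p53-responsive RNA, ranged from 37.8 to 59.3 CPM and from 23.2 to 58.9 CPM (-0.39 ± 0.261). Pvt1, next to Myc, ranged from 8.12 to 23.1 CPM and from 10.4 to 14.8 CPM (0.03 ± 0.341). With the 9 libraries 8 of the 15 were positive, the median was 0.09, and 2 had an unadjusted p under 0.05, beside 5.84% of all genes.

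**Figure D5:**
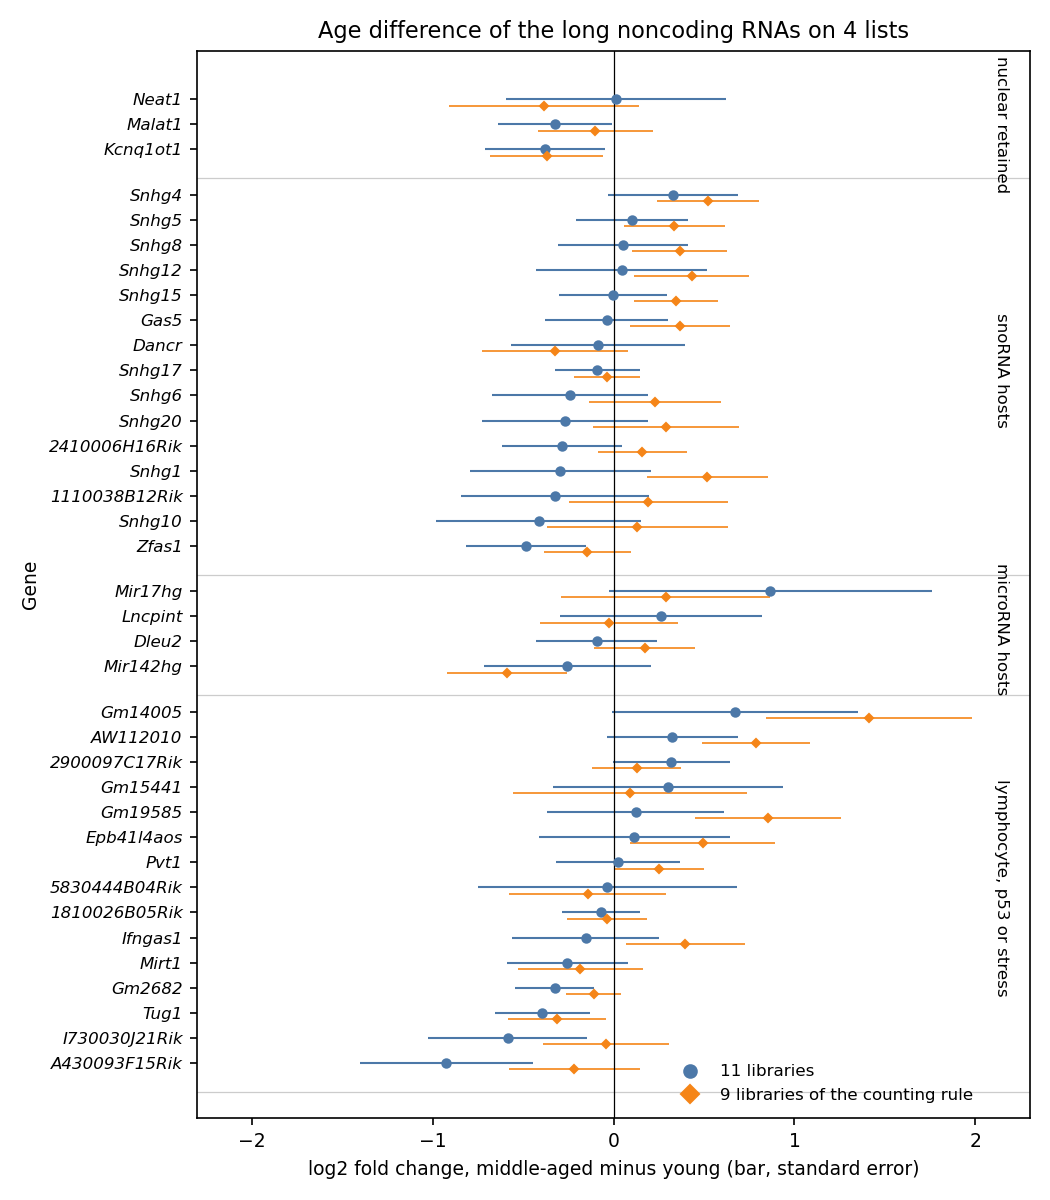
Log2 fold change with age (middle-aged minus young, bars for the standard error) of the lncRNAs on 4 lists, with all 11 libraries (blue circles) and with the 9 of the counting rule (orange diamonds). Among the 15 snoRNA hosts 4 blue circles and 12 orange diamonds lie to the right of 0.

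The lncRNAs that overlap a protein-coding gene on the opposite strand formed 220 pairs in which both were tested. The 2 log2 fold changes had the same sign in 115 pairs (52.3%), with a Pearson correlation of 0.31 and a Spearman correlation of 0.20 across pairs, which share the same libraries and, where strand was not counted, reads. In 11 pairs the protein-coding gene had an unadjusted p under 0.05 for age, and in 2 of them, Gm43352 with Lef1 and BE692007 with Ms4a6c, the lncRNA did too. Runx2os1, opposite Runx2, had a log2 fold change of -0.01 where Runx2 had 0.64, and Gm37065, opposite Slamf6, had -1.13 where Slamf6 had -0.76. These 2 pairs were named after their values had been seen. By class, 7 of 172 lincRNAs, 6 of 148 antisense RNAs and 2 of 103 processed transcripts had an unadjusted p under 0.05, beside 2.99% of all genes, with medians of -0.14, -0.18 and -0.07.

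Females and males did not differ in any lncRNA of the set after adjustment (edgeR, 0 of 423, against 0.0381% of all genes). At an unadjusted p under 0.05 there was 1 lncRNA, D630008O14Rik (log2 fold change, female minus male, -1.63, adjusted p = 1.00 by edgeR), against 0.754% of all genes. The difference with age was not shown to depend on sex for any of the 423 (edgeR interaction term, 0 called, 0% of all genes). At an unadjusted p under 0.05 there were 5 lncRNAs (1.18%, against 1.2% of all genes), namely Epb41l4aos, Gm10076, Gm15564, D930028M14Rik and Zfas1. In all 5, the difference with age was positive in males and negative in females, for example 1.12 and -0.67 on the log2 scale for Epb41l4aos.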

How the data were processed

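Bulk RNA-seq of sorted CD8+ Tregs was analysed in 11 libraries, made with a SMARTer kit from column-purified RNA. The authors deposited raw counts per Ensembl gene with GRCm38 coordinates. Their processing notes name kallisto and mm10 with no role, and strand, version and handling of shared reads are not given in the sources used here. Groups came from the labels, and nothing was unassigned. How far replicates are separate mice is stated only as biologically independent.

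Counts were fitted in edgeR 4.0.16 (R 4.3.3): TMM factors, filterByExpr by age (minimum count 10, total 15), glmQLFit with robust estimation, glmQLFTest on the age coefficient beside one for sex, and Benjamini-Hochberg adjustment over 13129 genes. Log2 CPM used a prior count of 2. DESeq2 1.42.0 and limma 3.58.1 (voom) were alternatives. Exact permutation tests were 2-sided. The steps were tested on simulated data. Sequence matches used BLAST 2.17.0 on GENCODE M21 transcripts.

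The set, the lists and the tests were chosen with earlier results of these data known. Named were the 10 most abundant lncRNAs, up to 8 per direction with the smallest unadjusted p under 0.05, and all listed lncRNAs. Also named were the first 3 rows by gene identifier on each side of the minimum. The replicate-number test, the set without RefSeq protein-coding genes and the fit without middle-aged female 2 were added after seeing the data. Marker lists of B, erythroid, NK and CD4 T cells were also summed (CPM, young then middle-aged: B 130 to 418 and 176 to 611, erythroid and platelet 16.8 to 110 and 0.761 to 24.1, NK 778 to 1250 and 655 to 1287, CD4 1.45 to 25.0 and 4.43 to 27.6). The NK sum joined genes whose medians went opposite ways, with ranges that overlapped. Ncr1, Klrb1c, Klra8, Gzma (296 and 37.8 CPM) and Tyrobp had lower medians in middle-aged libraries. Eomes (181 and 289 CPM) and Klre1 had higher ones.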

Additional observations from a re-analysis of the deposited data

Results flagged for a closer look

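In 7 of 44 groups tested over the 10 most abundant lncRNAs and the 12 lncRNAs described for age, 1 library lay far from the other libraries of its age by Dixon's criterion, which chance meets in about 1 group in 20. The shallow libraries, young male 1 and young female 1, account for 5 of the 7. In young female 1, Gm10076 was at 262.2 CPM against 144.8 in the nearest young library, B630019A10Rik at 13.8 against 6.81, and 2810468N07Rik at 21.3 against 7.23. In young male 1, A930002I21Rik was at 125.9 CPM against 33.1, and AU020206 at 47.2 against 24.41. Gm12454 was at 2.02 CPM in young female 3 against 0.716. Gm13546 was at 2.21 CPM in middle-aged female 2, the library with the myeloid markers, against 1.12 in the nearest middle-aged library.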

How the results depend on the processing

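No lncRNA of the set was called for age under any edgeR setting tried (adjusted p under 0.05), including each library left out, 0 to 0, whereas DESeq2 and limma voom called 4 each. For all genes, 3 were called, and 17 without the filter, 112 by DESeq2, 138 by limma voom, 5 without the sex term, 6 with the 9 deeper libraries and 1 to 4 with 1 library left out. The count of lncRNAs at an unadjusted p under 0.05 ranged from 10 to 23 when 1 library was left out, the lowest being the fit lacking middle-aged female 2 and the highest the one lacking young male 1. The set would hold 272 lncRNAs at 10 counts in all 11 libraries and 290 at 20 counts in the 9. Libraries of the same sex and number deviated together from their group means by 0.0287 to 0.428 (Pearson over all genes, 5 pairs, and 0.102 to 0.427 over the lncRNAs), and 7 of 10 libraries correlated best with their own number, a hint from the data only. With the replicate block within sex, 0 lncRNAs and 2 genes were called, and with the block shared by the sexes 0 and 19, while the lncRNAs at an unadjusted p under 0.05 went from 15 to 21 and 31. The direction of 6 abundant lncRNAs, none of them called, changed sign: Gm26917 (9 libraries, -0.21, and with 1 left out -0.57 to 0.63), Tmem134 (voom 0.15, 9 libraries 0.53, 1 left out -0.40 to 0.34), Gas5 (voom 0.17, 9 libraries 0.37, 1 left out -0.28 to 0.25), Gm10076 (voom 0.23, 9 libraries 0.0355, 1 left out -0.35 to 0.0709), AI506816 (9 libraries -0.22, 1 left out -0.0739 to 0.33) and Gm19585 (replicate block -0.0195 within sex and -0.0226 shared, 1 left out -0.21 to 0.51). Some lncRNAs of the lists also changed sign with 1 library left out, for example Ifngas1 (-0.47 to 0.21) and Neat1 (-0.38 to 0.52). Others kept it, for example Zfas1 (-0.63 to -0.20) and Snhg4 (0.25 to 0.54). The cause of these changes was not tested. Low counts limit the set: 133 of the 423 lncRNAs had a lowest count under 20.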
